A study of Mus musculus with 3 samples.

Results

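Stroma2 was 1 of 10 stromal clusters, Stroma1 to Stroma10, in the deposited cluster table of a single-cell RNA sequencing study of mouse melanoma. It was taken as all cells that the table names Stroma2. They numbered 1171 of the 12670 cells of the study. Of these, 1144 came from an untreated tumor, 26 from a tumor that had progressed under vemurafenib and 1 from a tumor that had regressed under vemurafenib. Vemurafenib inhibits the mutant Braf kinase that drives these tumors.

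The tumors arose in mice of the C57BL/6 background (C57BL/6J in the study's methods) that carried, among their engineered alleles, a conditional Braf V600E allele (Braf LSL.V600E) and a conditional reporter (Rosa26 LSL.tdTomato). A tamoxifen-inducible Cre under the tyrosinase promoter (Tyr.CreER), which is active in melanocytes, recombined these alleles after hydroxytamoxifen was put on the flank skin. Fibroblasts in these tumors are therefore host cells that should not carry the recombined alleles. Each group was 1 tumor in 1 library, so there was no replicate of any group, the tumor, its treatment and its library cannot be told apart, and no test between tumors was made.

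Dermal fibroblasts make the collagens and proteoglycans of the skin. In inflamed tissue, fibroblasts can also put adhesion molecules on their surface and release cytokines that hold lymphocytes and myeloid cells in place, and some fibroblasts belong to the adipocyte lineage. The 6 markers given with Stroma2 touch each of these roles. Vcam1 is an adhesion molecule bound by integrins of lymphocytes and monocytes, Sele (E-selectin) is a lectin that slows rolling leukocytes and is best known from activated endothelium, and Aoc3 is an amine oxidase that also serves as a vascular adhesion protein. Tnfsf13b (BAFF) is a survival cytokine for B cells, Gdf10 is a secreted member of the BMP family, and Lpl is the lipoprotein lipase that frees fatty acids from circulating lipoproteins.

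Sele was the marker least usual for a fibroblast, so the bases upstream of a transcript start listed for it are shown. They cover chr1:164047984-164048233 on the plus strand of GRCm38.p6, as given by RefSeq, 5′ to 3′, with the TATA box motif TATAAA in capitals.
Sele: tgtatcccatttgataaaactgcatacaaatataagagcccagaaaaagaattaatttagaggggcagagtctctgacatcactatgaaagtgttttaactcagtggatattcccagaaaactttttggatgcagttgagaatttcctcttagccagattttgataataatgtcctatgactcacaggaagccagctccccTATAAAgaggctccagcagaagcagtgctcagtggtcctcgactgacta
This start lies inside the full span that RefSeq gives for the gene, which also has predicted transcripts. The letters TATAAA were found in 7.59% of the 32851 promoter windows of this table, searched on both strands. The letters GGGNTTNCC, a form of the NF-kB motif, were found in 3.99% of the windows and were not in this Sele window. Other forms of that motif were not searched, so this does not show that the window lacks an NF-kB site.

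Expression was measured as unique molecular identifiers (UMIs), which count transcripts, and was summed over the cells of a cluster within 1 tumor and given as counts per 1000000 UMIs (CPM). All intervals are 95% intervals and cover counting error only. The clusters had been made from the same genes, so every difference between Stroma2 and other clusters is a description and was not tested. The 1144 untreated Stroma2 cells held 5878331 UMIs, with a median of 4587.5 UMIs and 2121 genes per cell. The other Stroma clusters of that tumor held 1484 cells and 8198899 UMIs, with a median of 4694.5 UMIs, so depth was similar on both sides. Mitochondrial transcripts made up 0.101% of UMIs in Stroma2 and 0.106% in the other stroma, and ribosomal protein transcripts 6.96% and 8.16%.

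Stroma2 was the largest stromal cluster of the untreated tumor, with 43.5% of its 2628 stromal cells (exact binomial interval, 41.6 to 45.5%). In the progressed tumor it held 0.760% of 3422 stromal cells (0.497 to 1.11%), and in the regressed tumor 0.0521% of 1918 (0.00132 to 0.290%). Other clusters filled the stroma of the treated tumors. Stroma6 held 36.7% of stromal cells in the progressed tumor, and Stroma10 and Stroma9 held 80.1% and 16.2% in the regressed tumor. Stroma9 had 0 of the 2628 untreated stromal cells. Stroma6 and Stroma10 held 3.16% and 0.152% of them. A difference between libraries cannot be told apart from a difference between tumors.

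The label of Stroma2 as fibroblasts was checked against marker lists. The 10 fibroblast genes together reached 60163 CPM in untreated Stroma2 and 41570 CPM in the other stroma, and all 10 were detected. Endothelial genes summed to 209 CPM in Stroma2, against 213 CPM in the other stroma and 8029 CPM in the Bloodvessel cluster. Pecam1, the defining adhesion molecule of endothelium, had 9 UMIs in all 1144 cells, and Kdr, the VEGF receptor, had 1. Cdh5 (437 UMIs) and Plvap (544 UMIs), which are also known from endothelium, carried most of the endothelial sum. Immune genes summed to 371 CPM in Stroma2 and 376 CPM in the other stroma, and most of this sum was the neutrophil gene S100a8, with 1992 of 2178 UMIs. Pericyte and smooth muscle genes summed to 351 CPM in Stroma2 and 291 CPM in the other stroma (log2 ratio 0.27, 0.19 to 0.36). In Stroma2, Des gave 781 of these 2065 UMIs and Notch3 601. In the other stroma, the 83 cells of Stroma6 were at 2055 CPM and gave 974 of the 2385 UMIs. Stroma2 thus had a far higher fibroblast sum than Bloodvessel and Neutrophils, with Pecam1 near 0.

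All 6 markers were higher in untreated Stroma2 than in the other stroma by the ratio of summed CPM. Vcam1 (chromosome 3, 116110020 to 116129688) was at 397 CPM from 2335 UMIs, against 63.9 CPM from 524 UMIs, a log2 ratio of 2.64 (2.50 to 2.78). Sele (chromosome 1, 164039614 to 164058487) was at 419 CPM against 61.6 CPM, a log2 ratio of 2.77 (2.63 to 2.91). Aoc3 (chromosome 11, 101330606 to 101339430) was lower in level, at 61.6 CPM against 16.7 CPM, with a log2 ratio of 1.88 (1.59 to 2.18). The adhesion markers were therefore each more than 2-fold higher in Stroma2 than in the rest of the stroma. Tnfsf13b (chromosome 8, 10006229 to 10036000) was at 69.7 CPM against 12.1 CPM, a log2 ratio of 2.53 (2.21 to 2.86). Gdf10 (chromosome 14, 33923587 to 33936514) was at 1293 CPM against 182 CPM, a log2 ratio of 2.83 (2.75 to 2.91). Lpl (chromosome 8, 68880555 to 68906932) was at 1163 CPM against 236 CPM, a log2 ratio of 2.30 (2.23 to 2.38). When the other clusters were given equal weight in place of their cells, the log2 ratio was 1.30 for Lpl, 1.46 for Aoc3 and 2.40 to 3.28 for the other 4.

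**Figure D1:**
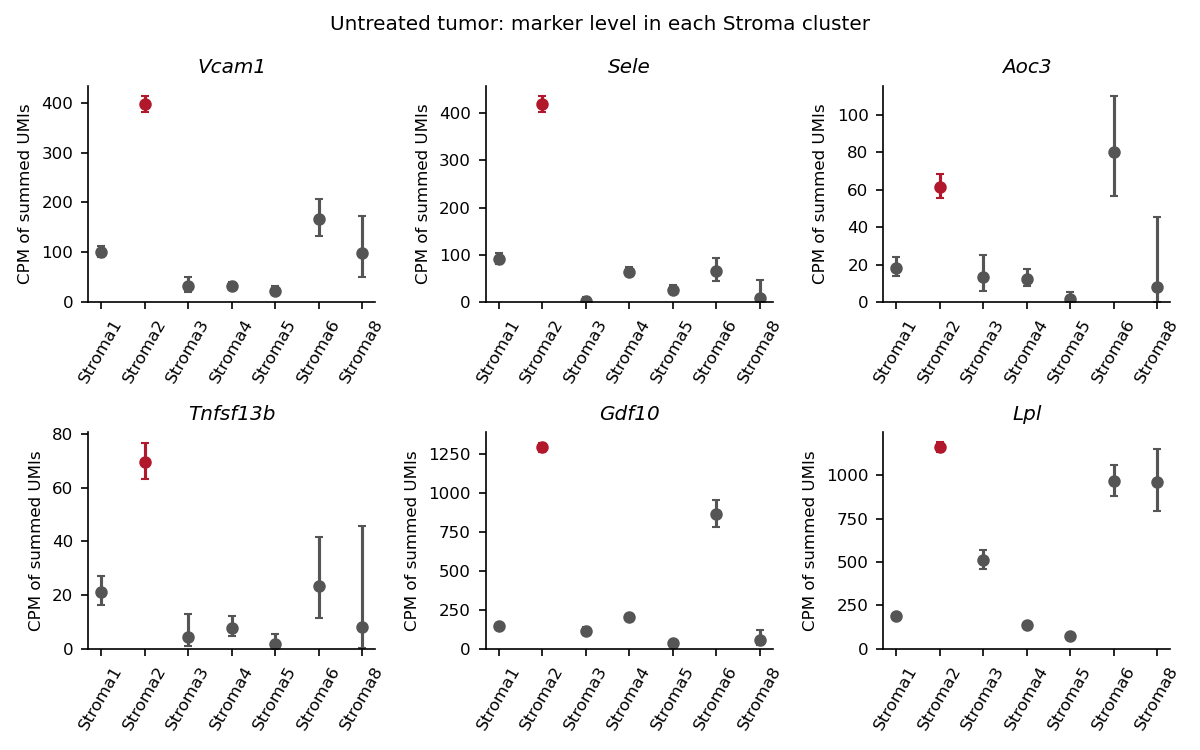
Level of the 6 markers in each Stroma cluster of the untreated tumor with at least 20 cells; points are CPM of summed UMIs and bars exact Poisson 95% intervals, with Stroma2 in red. Stroma2 was highest for all markers except Aoc3, where Stroma6 was at 80.2 CPM against 61.6 CPM.

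Cluster by cluster, the marker levels of Stroma2 came closest to those of Stroma6. Stroma6 held 83 untreated cells and was the next cluster in order for Vcam1 (167 CPM), Gdf10 (865 CPM), Lpl (968 CPM) and Tnfsf13b (23.2 CPM). The log2 ratio of Stroma2 over Stroma6 was 1.25 for Vcam1 (0.93 to 1.60), 1.59 for Tnfsf13b (0.73 to 2.60), 0.58 for Gdf10 and 0.26 for Lpl. For Aoc3 it was -0.38 (-0.87 to 0.14), so the order of these clusters was not resolved. Sele separated them most, with 65.4 CPM in Stroma6 and a log2 ratio of 2.68 (2.17 to 3.24). For Sele the next stromal cluster was Stroma1 at 91.8 CPM, while Bloodvessel, the endothelial cluster, stood above Stroma2 with an interval of 931 to 1073 CPM. Lpl was also high in the 23 cells of Stroma8 (960 CPM), whereas their Gdf10 level was 57.5 CPM.

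Over all genes, log2(CPM + 10) of Stroma2 correlated most with Stroma1 (Spearman's rho 0.940 over 12565 genes) and Stroma6 (0.932 over 11842 genes), then with Stroma4 (0.902). The correlation was 0.680 with Bloodvessel. These are correlations across genes of 1 library, given as a description. The nearest neighbors differed from Stroma2 in different genes. Against Stroma1, Stroma2 had more Angpt2 (log2 ratio 4.41), an angiopoietin that loosens vessels, and more Gdf10 (3.13) and Lpl (2.61). It had less Saa3 (-5.13), an acute-phase protein, and less Wif1 (-6.29), a secreted WNT inhibitor. Against Stroma6, Angpt2 was slightly lower (-0.32, -0.62 to -0.01), Des, the muscle intermediate filament desmin, was not resolved (-0.31, -0.65 to 0.05), Col4a1 was level (0.00, -0.09 to 0.10), and Saa3 was higher (2.63).

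The share of cells with a UMI was compared after each cell was thinned to 2000 UMIs, which left out 137 of the 1144 untreated Stroma2 cells. A Gdf10 UMI was found in 79.7% of the remaining 1007 cells (77.1 to 82.2%) and an Lpl UMI in 79.1%. Vcam1 was found in 34.7% (31.7 to 37.7%), Sele in 21.4% (18.9 to 24.0%), Tnfsf13b in 12.7% and Aoc3 in 11.1%. As a background, the 314 thinned Neutrophils cells, which should lack these fibroblast genes, had Gdf10 in 6.05%, Lpl in 4.78%, Vcam1 in 2.23%, Sele in 3.50%, Tnfsf13b in 1.59% and Aoc3 in 1.27%. Their median depth was 3257 UMIs before thinning. Each marker was thus found in Stroma2 cells more often than in this background, with intervals that did not overlap. Without thinning, the shares in Stroma2 were 89.7% for Gdf10, 89.8% for Lpl, 52.7% for Vcam1, 26.7% for Sele, 23.5% for Tnfsf13b and 25.5% for Aoc3. The background depended on the cluster chosen. Unthinned, Lpl was found in 6.39% of Neutrophils, 14.7% of Macrophages and 23.2% of Monocytes2 cells of this tumor. Gdf10 was found in 10.7% of Neutrophils and 21.6% of Bloodvessel cells.

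Genes of other cell types were counted in the same way. S100a8 was found in 47.2% of thinned Stroma2 cells, in 50.7% of Bloodvessel cells and in 100% of Neutrophils, while Ptprc, the pan-leukocyte surface gene, was found in 0.298% of Stroma2 cells. Cdh5 was found in 13.8% of Stroma2 cells, in 0.955% of Neutrophils and in 78.3% of Bloodvessel cells. Pecam1 was found in 0.298% of Stroma2 cells and in 79.7% of Bloodvessel cells. Sele was found in 36.2% of Bloodvessel cells.

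**Figure D2:**
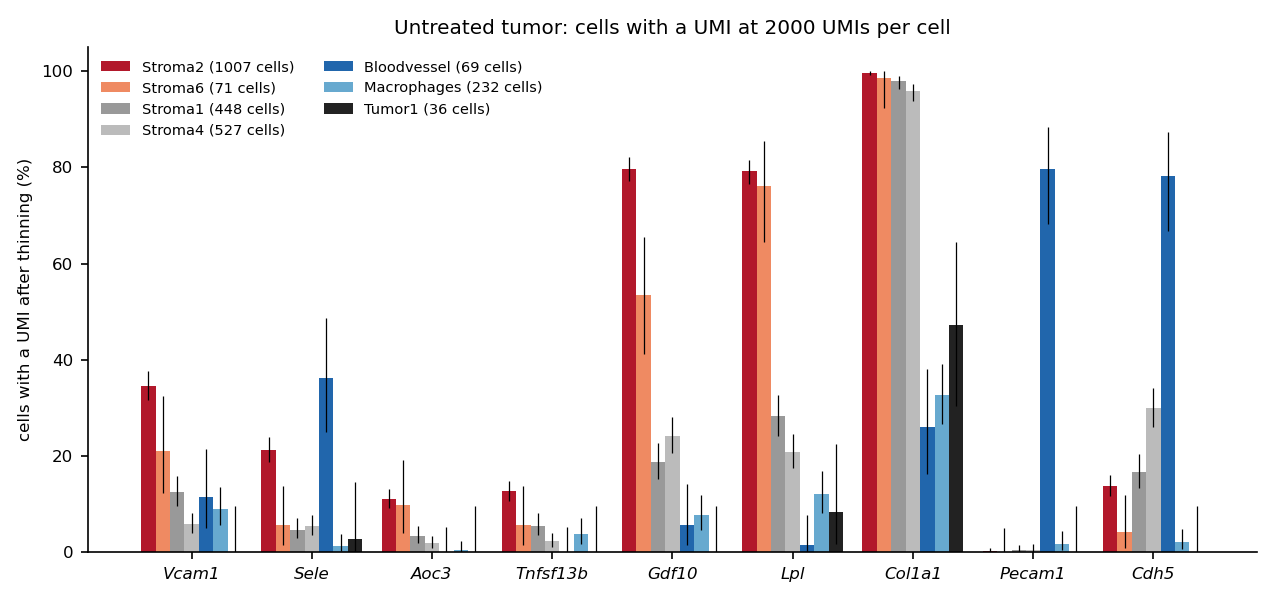
Share of cells with a UMI of each gene (y axis, percent) after thinning to 2000 UMIs, in clusters of the untreated tumor; error bars are exact binomial 95% intervals. Sele was found in Stroma2 and Bloodvessel cells (21.4% and 36.2%), but Pecam1 in 0.298% and 79.7%.

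Cells were also counted by how many of the 6 markers they held, most often Gdf10 and Lpl. At least 1 of the 6 was found in 97.8% of thinned Stroma2 cells and in 49.8% of the 1344 thinned cells of the other stroma. At least 3 were found in 44.8% of Stroma2 cells (41.7 to 47.9%) and in 2.75% of the others (1.95 to 3.77%), with 18.3% in Stroma6. Aoc3 and Tnfsf13b were each found in few cells at this depth, so the count of cells with all 6 is not informative. Cells with a Sele UMI (215) and without (792) had overlapping intervals for Col1a1 (99.5% and 99.7%), Vcam1 (38.1% and 33.7%), Pecam1 (0.465% and 0.253%) and S100a8 (46.0% and 47.5%). Gdf10 was found in 86.5% of cells with Sele (81.2 to 90.8%) and in 77.9% of cells without (74.9 to 80.7%). Tnfsf13b went the other way, with 5.58% of cells with Sele (2.92 to 9.55%) and 14.6% of cells without (12.3 to 17.3%). These splits were made on the same cells and depth, and were not tested.

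The variation of each gene among Stroma2 cells was measured on thinned counts. Across 1595 genes with at least 0.2 UMIs per thinned cell, the median ratio of variance to mean was 1.08, where 1 is the value for pure counting; the ratio tends to be larger for abundant genes. The ratio was highest for Malat1 (30.7), a nuclear noncoding RNA. Next came Mgp (17.5), the matrix Gla protein that blocks calcification, Apod (16.2), a lipid carrier, and Cst3 (15.4), a protease inhibitor. Saa3 (14.2) was found in 10.3% of cells, and the 10% of cells richest in it held 98.5% of its UMIs. Igfbp5 (10.1), an IGF-binding protein, was found in 16.3% of cells, with 88.9% of its UMIs in the richest 10%. Gsn (13.8), Col3a1 (11.5), Cxcl14 (10.9) and Dcn (10.4) completed the 10 most variable genes. Aoc3 and Tnfsf13b were below the minimum of 0.2 UMIs per thinned cell and were not measured. Of the markers measured, Sele was the most uneven, at 7.15 (rank 13), and the richest 10% of cells held 80.3% of its UMIs. Vcam1 stood at 4.32, Gdf10 at 2.93 and Lpl at 2.31. Among the measured markers, Gdf10 and Lpl, found in most cells, were thus the more even ones.

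Of 13531 genes with at least 20 UMIs in both groups together, 593 were at least 2-fold higher in untreated Stroma2 than in the other stroma (4.38%) and 912 at least 2-fold lower (6.74%). The interval lay wholly on that side of 0 for 561 and 826 of them, and the median log2 ratio of all genes was -0.065. In 956 genes Stroma2 was above each of the 6 other clusters with at least 20 cells, and in 31 it was at least 2-fold above the highest of them. The 20 genes with the highest ratios, among those with at least 50 CPM, held the 6 markers. Of these 20, 12 were above all 6 other clusters, and Stroma6 was the highest other cluster for 13.

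Angpt2 led the list at 166 CPM against 22.0 CPM, a log2 ratio of 2.91 (2.68 to 3.15), but was at 207 CPM in Stroma6. Genes of several roles followed. Avpr1a, the vasopressin receptor of vascular tissue, was at 51.0 CPM against 10.9 CPM (2.23). Ptgs1, the constitutive cyclooxygenase, was at 56.0 CPM against 13.4 CPM (2.06). Des was at 133 CPM against 28.2 CPM (2.24). Cxcl16, a membrane-bound chemokine for T cells, was at 137 CPM against 33.4 CPM (2.04). Adamts12, a matrix metalloprotease, was at 302 CPM against 77.0 CPM (1.97). Serpinb6b (2.39), Lgi2 (2.29), Inmt (2.10), Slfn5 (2.03), Dapk1 (1.98), Cd53 (1.89), Ifi207 (1.88) and Basp1 (1.84) made up the rest. For 5 of the 20, including Lgi2 (123 CPM), Inmt (123 CPM) and Slfn5 (542 CPM), Stroma8 stood above Stroma2. With equal weight for the other clusters the ratios of Lgi2, Inmt, Slfn5, Ifi207 and Basp1 dropped to between 0.80 and 0.96, and those of Angpt2 and Dapk1 to 1.80 and 1.20.

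The 10 lowest genes, largely secreted or surface proteins, each had their highest level in Stroma3, Stroma4 or Stroma5. Stroma6 of the untreated tumor was low in them as well, with 3 UMIs of Wif1 and 0 of Sfrp5, Xkr7, Gcg and Bmp7. It stood above Stroma2 for 4 of the 10, and the order of these 2 clusters was not resolved for any of the 10. Wif1 was at 1.70 CPM in Stroma2 and 75.2 CPM in the other stroma (-5.47), Sfrp5, another WNT inhibitor, at 3.23 against 131 CPM (-5.34), and Bmp7, a BMP ligand, at 3.06 against 54.2 CPM (-4.14). Sbspon, a matrix protein, was at 5.27 against 191 CPM (-5.18), and Itgb4, the integrin of hemidesmosomes, at 2.89 against 65.2 CPM (-4.50). Xkr7 (-5.28), Stra6 (-5.09), Gcg (-4.66), Reln (-4.63) and Col26a1 (-4.43) were the others.

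**Figure D3:**
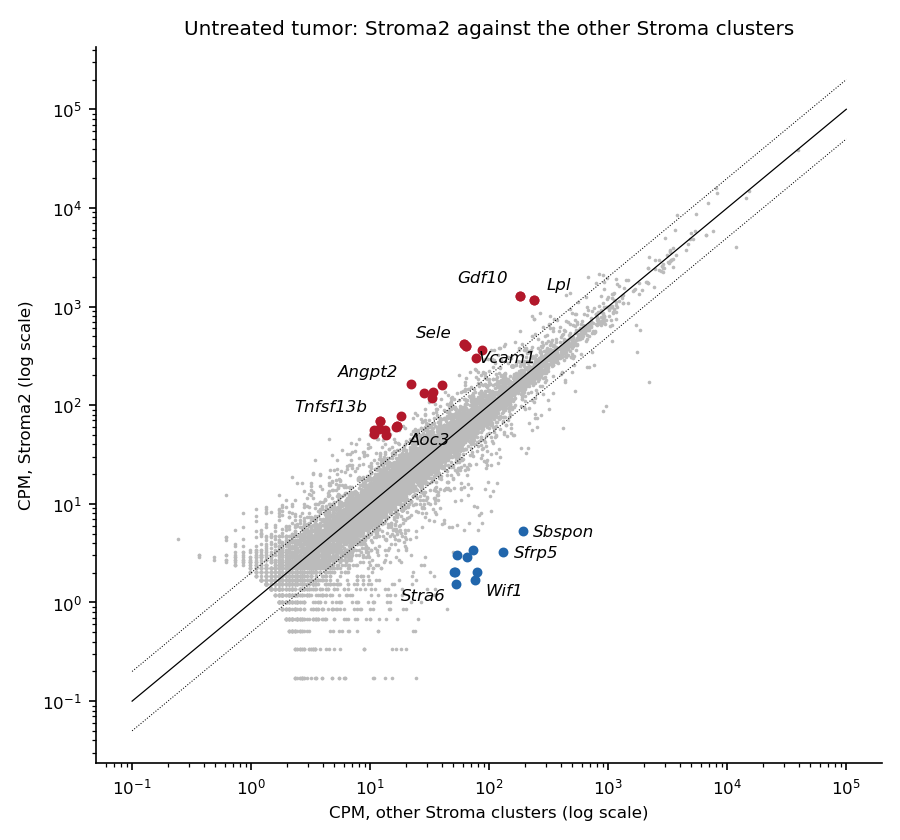
Summed CPM of each gene in Stroma2 (y) and in the other Stroma clusters (x) of the untreated tumor, both on log scales, for genes above 0 in both; the solid line is equality and the dotted lines 2-fold. Red points are the 20 highest genes, which include Gdf10 at 1293 against 182 CPM, and blue points the 10 lowest, such as Sfrp5 at 3.23 against 131 CPM.

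Genes of the roles named above were then counted in whole lists, to be read against 4.38% of all genes 2-fold higher and 6.74% 2-fold lower. Of 10 leukocyte adhesion genes with enough UMIs, 3 were higher (Vcam1, Sele and Aoc3), 3 were lower (Alcam, Cd34 and Jam2) and the median log2 ratio was -0.30. Icam1, the integrin ligand often paired with Vcam1, was at 108 CPM against 119 CPM (-0.14), and Selp, the selectin of platelets and endothelium, had 22 UMIs. Of 12 genes of the TNF superfamily, Tnfsf13b and Tnfrsf1b, a TNF receptor, were higher, and 3 were lower, Tnfrsf12a (-1.26), Tnfrsf11b (-1.82) and Tnfsf11 (-1.52). Within the adhesion list, the higher genes were the 3 markers themselves.

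Chemokines were mixed. Of 15, Cxcl16 and Cx3cl1, the other membrane-bound chemokine (1.38), were higher, and Cxcl5 (-3.10), Ccl9 (-1.68) and Cxcl13 (-2.61) were lower. Cxcl12, the ligand of Cxcr4, was at 1683 CPM against 1192 CPM (0.50). Lymphoid stromal genes had 0 of 9 higher and 2 lower, and Ccl19, the chemokine of lymph node T zones, had 0 UMIs in Stroma2 and 0 in the other stroma. NF-kB response genes had 0 of 15 higher and 2 lower (median 0.00), interferon response genes 0 of 15 and 1, and class I antigen presentation 0 of 8 and 0. Among complement genes, Cfi, a protease that inactivates complement fragments (1.90), and C1rl (1.06) were higher, and 0 of 12 were at least 2-fold lower.

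Of 15 BMP and GDF genes, Gdf10, Gdf6 (3.06, 18 against 3 UMIs) and the activin antagonist Fst (1.96) were higher, and the lower genes included Bmp7, the antagonist Chrdl1 (-2.26) and the activin subunits Inhba (-1.72) and Inhbb. Of 14 WNT genes, Wnt4 was higher (1.02, 16 against 11 UMIs, interval -0.18 to 2.27) and Wif1, Sfrp5, Sfrp1 (-1.23) and Dkk2 were lower. Dkk2 had 0 UMIs in Stroma2 and 43 in the other stroma. Secreted antagonists thus made up all 4 WNT genes below 2-fold, while Gdf10 was alone at a high level among the BMP genes that were higher.

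Other lipid and adipocyte genes did not follow Lpl as a group. Of 16 lipid genes, Lpl and Pltp, the phospholipid transfer protein (1.10), were higher and Apod (-1.56) was lower, with a median of -0.20. Gpihbp1, the endothelial anchor of Lpl, had 1 UMI, and the fatty acid transporter Cd36 had 15. Of 19 preadipocyte genes, 4 were higher, namely Lpl, F3 (tissue factor; 295 against 97.9 CPM, 1.59), Fmo2 (296 against 91.8 CPM, 1.69) and Clec11a (112 against 55.5 CPM, 1.01). The other direction held 5, Dlk1 (-3.32), Klf5 (-2.53), Dpp4 (-2.34), Sfrp1 and Pi16 (-1.10). Pparg, the master regulator of adipocytes, had 3 UMIs against 16 and was below the UMI minimum. Fabp4 was at 32.8 against 41.7 CPM (-0.35). Of the adipocyte markers, 1 of 7 had enough UMIs to be counted, and it was not 2-fold apart.

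Genes of skin fibroblast lineages were mostly lower, with 8 of 14 at least 2-fold lower, 1 higher and a median log2 ratio of -1.11, against -0.065 over all genes. The lower genes included Cd34 (113 against 314 CPM, -1.47), Twist2 (42.5 against 91.7 CPM, -1.11) and, from few UMIs, Corin (-3.88), Prdm1 (-3.33) and Crabp1 (0 against 28 UMIs). En1, the homeobox gene of a dorsal dermal lineage, was higher (1.06, 61.9 against 29.6 CPM).

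Among matrix genes, basement membrane components had 3 of 12 higher and 0 lower. Col4a1 (2002 against 676 CPM, 1.57) and Col4a2 (2159 against 836 CPM, 1.37), the main chains of type IV collagen, were joined by Col15a1 (671 against 317 CPM, 1.08). They were not particular to Stroma2. Against Stroma6, Col4a1 (0.00, -0.09 to 0.10), Col4a2 (-0.02, -0.11 to 0.08) and Col15a1 (0.14, -0.03 to 0.32) were not resolved. Fibrillar and associated collagens had 2 of 14 higher, Col6a1 (1965 against 981 CPM) and Col6a2 (1.13), and 2 lower, with a median of 0.63; Col1a1 was at 8738 against 5418 CPM (0.69) and Col1a2 at 14263 against 8121 CPM (0.81). Matrix proteases had 2 of 17 higher, Adamts5 (561 against 180 CPM, 1.64) and Mmp23 (1.32), and 3 lower, among them Mmp10 with 1 UMI against 50. Proteoglycans had 0 of 20 higher and 3 lower, and collagen crosslinking enzymes 0 of 9 and 0.

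The contractile and pericyte lists were mixed in Stroma2, and the pericyte sum was higher in Stroma6 (2055 CPM) than in Stroma2 (351 CPM). Of 10 pericyte and smooth muscle genes, Des and Notch3, the Notch receptor of mural cells (102 against 43.8 CPM, 1.22), were higher, and Rgs5 (-3.96), Acta2 (-2.38), Myh11 (-2.20) and Cspg4 (-2.03) were lower. Rgs5 was at 1.19 CPM in Stroma2 and 238 CPM in Stroma6, and Acta2 at 11.1 and 627 CPM. Both genes were thus far lower in Stroma2 than in Stroma6, while Des (133 and 165 CPM) and Angpt2 (166 and 207 CPM) were closer in level. Of TGF-beta targets, Ccn1 (1.11) was higher and Tgfbi (643 against 1715 CPM, -1.42), Ltbp2 (-3.53) and Acta2 were lower among 12. Their sum was nonetheless higher in Stroma2, at 11314 against 9199 CPM (0.30, 0.28 to 0.31). MAPK targets had 0 of 9 higher and 3 lower, among them Etv4 (24.5 against 103 CPM, -2.07) and Etv1 (-1.57). The sum of the MAPK targets was also higher in Stroma2, at 1474 against 1067 CPM (0.47, 0.42 to 0.51). Of 17 growth factors, Hgf, the ligand of Met, was higher (109 against 31.0 CPM, 1.81) and 2 were lower. Immediate early genes had 0 of 10 higher and 1 lower, and hypoxia and glycolysis genes 0 of 13 and 3. Of 22 receptors, Pdgfra (498 against 230 CPM, 1.12) and Acvrl1 (1.16) were higher and 1 was lower.

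**Figure D4:**
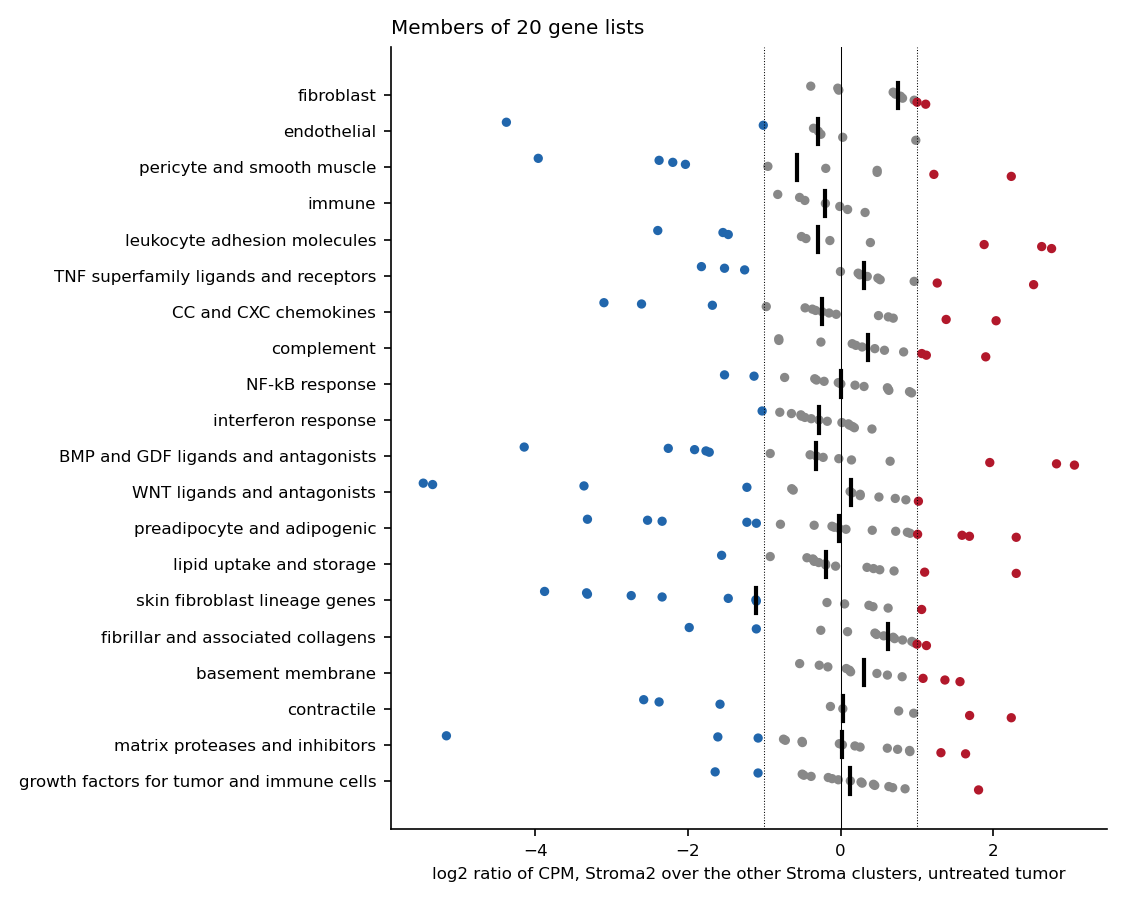
Log2 ratio of CPM of Stroma2 over the other Stroma clusters in the untreated tumor (x axis) for each list member with enough UMIs, with genes at 0 in Stroma2 placed at the bound given by 3 UMIs; the black bar is the list's median, and colors mark members at least 2-fold higher (red) or lower (blue). Basement membrane genes held 3 higher and 0 lower, and skin fibroblast lineage genes 1 higher and 8 lower.

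Marker transcripts of further cell types were counted beside these results, and their part in them was not tested. Keratinocyte genes summed to 185 CPM in untreated Stroma2 and 204 CPM in the other stroma, Schwann cell genes to 126 and 250 CPM, and adipocyte markers to 22.5 and 21.5 CPM. Genes of dividing cells summed to 43.7 CPM in both. The viral element tWPRE, part of the reporter, was at 20.2 CPM in Stroma2 and 54.6 CPM in the other stroma (-1.43), and Mlana, a melanocyte gene, at 4.59 and 0.61 CPM (27 against 5 UMIs). When cells with any UMI of Ptprc, Pecam1, Cdh5 or the reporter were left out, which kept 728 Stroma2 cells, the log2 ratio was 2.44 for Sele, 2.63 for Gdf10 and 1.87 for Lpl.

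The 26 Stroma2 cells of the progressed tumor held 121117 UMIs, with a median of 4081 UMIs per cell. Fibroblast genes summed to 51174 CPM in them, and 6 of 10 endothelial genes had 0 UMIs. The endothelial sum was nonetheless higher, at 388 CPM from 47 UMIs, against 209 CPM in untreated Stroma2 (log2 ratio 0.89, 0.44 to 1.31) and 222 CPM in the other progressed stroma (0.80, 0.36 to 1.22), and Plvap gave 29 of these UMIs. Keratinocyte genes summed to 330 CPM in progressed and 185 CPM in untreated Stroma2 (0.83, 0.34 to 1.29), with 284 CPM in the other progressed stroma. The part of these transcripts in the differences between tumors was not tested. Within that tumor, 3 markers were more than 2-fold above the other progressed stroma. Lpl was at 776 CPM against 278 CPM, a log2 ratio of 1.48 (1.17 to 1.78), Gdf10 at 784 against 366 CPM, 1.10 (0.79 to 1.39), and Aoc3 at 41.3 against 12.7 CPM, 1.71 (0.07 to 2.95, from 5 UMIs). Against progressed Stroma6 alone, however, Gdf10 was lower (-0.33, -0.64 to -0.04). Lpl (0.14, -0.17 to 0.44) and Aoc3 (0.43, -1.22 to 1.68) were not resolved from Stroma6. For Vcam1 (107 against 65.4 CPM, log2 ratio 0.72) and Tnfsf13b (3 UMIs, log2 ratio 0.61) the interval held 0. Sele had 5 UMIs, 41.3 CPM against 73.5 CPM, and a log2 ratio of -0.83 (-2.46 to 0.39). Of the 20 highest genes of the untreated contrast, 15 were above the other progressed stroma and 9 had an interval above 0, among them Avpr1a (2.30) and Adamts12 (1.57). Against progressed Stroma6 alone, Angpt2 (-1.52), Des (-2.59), Inmt (-2.93) and Ifi207 (-1.61) were lower, as Gdf10 was. The rest of the 20 were not resolved from Stroma6. All 10 of the lowest genes were below the other progressed stroma, 7 of them with an interval below 0. These rested on few UMIs: 4 of the 10 had 0 UMIs in progressed Stroma2, and the most was 3, for Sbspon. The clusters had been made over all tumors together, so this is again a description.

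In the progressed tumor, Stroma6 had high Gdf10 and Lpl, but all 6 markers were below their levels in untreated Stroma2. The 1255 progressed Stroma6 cells had Gdf10 at 988 CPM, Lpl at 704 CPM and Vcam1 at 167 CPM. Sele was at 69.9 CPM in them, Tnfsf13b at 37.8 CPM and Aoc3 at 30.7 CPM. In the regressed tumor, Stroma9 (310 cells) had Lpl at 796 CPM, Gdf10 at 600 CPM, Vcam1 at 87.5 CPM and Sele at 44.1 CPM, while Stroma10, the main cluster there, had 111, 81.5, 20.6 and 3.91 CPM. Of all stromal clusters with at least 50 cells in any of the tumors, untreated Stroma2 had the highest Sele level. The single regressed Stroma2 cell held 384 UMIs, of which 2 were of the 6 markers and 19 of Col1a1, Col1a2 and Col3a1, too few to say more.

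Between Stroma2 cells of the progressed and the untreated tumor, 11717 genes had at least 20 UMIs. Of these, 1106 were at least 2-fold higher in the progressed tumor (9.44%) and 964 at least 2-fold lower (8.23%). The interval lay wholly on that side of 0 for only 275 and 166 of them, so most of these calls rested on a few UMIs of 26 cells. The median log2 ratio was 0. Genes without a progressed UMI were set at 0 where their bound lay above 0, so this median is not a measured balance. Scaling by TMM moved all ratios by -0.17 and scaling by RLE by -0.15, which gave 742 higher and 1320 lower with TMM, and 791 higher and 1269 lower with RLE. These values compare 2 libraries and not 2 conditions.

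Of the markers, Sele and Vcam1 were lowest relative to the untreated cells. Sele was 41.3 CPM in the progressed cells and 419 CPM in the untreated ones, a log2 ratio of -3.34 (-4.97 to -2.12). Vcam1 was at 107 and 397 CPM, a ratio of -1.89 (-2.80 to -1.11). Gdf10 (-0.72, -1.03 to -0.43) and Lpl (-0.58, -0.89 to -0.29) were less far apart, and Aoc3 (-0.58, -2.21 to 0.66) and Tnfsf13b (-1.49, -3.78 to 0.06) were not resolved. These intervals do not cover the uneven spread of Sele and Vcam1 among cells. By share of unthinned cells with a UMI, the intervals overlapped. Sele was in 11.5% of progressed cells (2.45 to 30.2%) and 26.7% of untreated ones (24.1 to 29.3%). Vcam1 was in 38.5% (20.2 to 59.4%) and 52.7% (49.8 to 55.6%).

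Of the 10 genes highest in the progressed cells, Batf3, a transcription factor of the AP-1 family, was at 223 against 31.8 CPM, from 27 and 187 UMIs (2.81, 2.17 to 3.40). Ptn, the heparin-binding growth factor pleiotrophin, was at 405 against 79.4 CPM (2.35, 1.89 to 2.78), and Metrnl, a secreted factor, at 198 against 52.1 CPM (1.93). Fgl2 (1.72), the BMP antagonist Nbl1 (1.57), Ugdh (182 against 64.1 CPM), which makes the sugar precursor of hyaluronan, the AP-1 gene Fosl2 (1.48), Gpr153 (1.47), Ifi203 (1.39) and Plvap (1.37) followed. The other progressed stroma also exceeded the untreated Stroma2 level for each of these except Gpr153 and Ifi203, for instance with 203 CPM of Ptn and 71.3 CPM of Batf3. The 10 lowest genes included Sele and rested on few UMIs in the progressed cells. Dpt, dermatopontin, had 4 UMIs, 33.0 against 397 CPM (-3.59, -5.46 to -2.23), and Igfbp5 3 UMIs (-3.65). Igfbp3 (-4.52), Eln (elastin, -3.97) and Thbs3 (-3.90) had 1 UMI each, Agtr1a (-3.04) had 3 and Des (-3.01) had 2. With cells thinned and genes without a UMI set at their bound, the ratios were -1.74 for Igfbp3, -0.79 for Eln, -2.07 for Igfbp5 and -1.02 for Des.

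S100a9 (-5.20, 1 UMI) and S100a8 are genes of neutrophils. S100a8 had 0 UMIs in the progressed cells and was at least 13.7-fold lower there, against a floor of 3 UMIs. It was at 339 CPM in untreated Stroma2 and 341 CPM in the other untreated stroma. The Neutrophils cluster held 391 cells in the untreated and 4 in the progressed tumor, and the part of free neutrophil RNA in this difference was not tested.

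**Figure D5:**
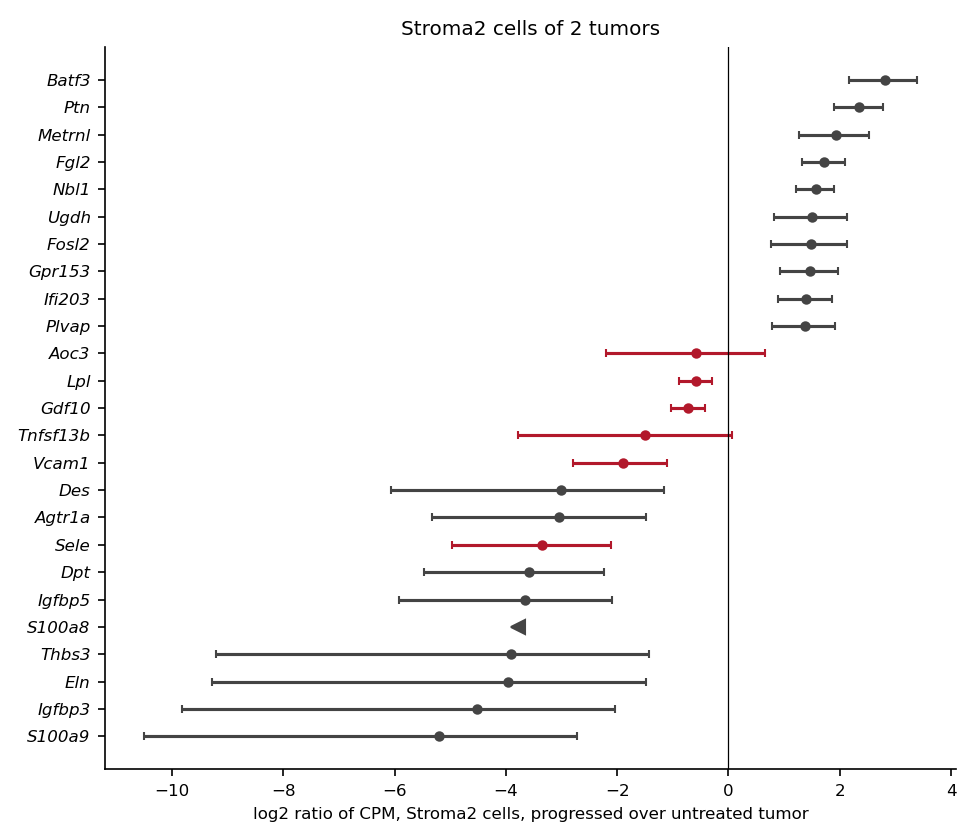
Log2 ratio of CPM of Stroma2 cells in the progressed over the untreated tumor (x axis) for the 10 highest genes, the 6 markers (red) and the 10 lowest genes, with exact 95% intervals for counting error; the triangle marks S100a8, which had 0 UMIs and is placed at its bound. Sele was the lowest marker at -3.34, and the intervals of Aoc3 and Tnfsf13b crossed 0.

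Lists were set beside all genes, of which 9.44% were higher and 8.23% lower. These shares depend on depth, because few genes with few UMIs could be called lower. Among the 7245 genes with at least 100 UMIs, 367 were higher and 956 lower. List members with many UMIs are better read against these counts. Progressed Stroma2 cells had 5 of 15 NF-kB response genes lower than untreated ones and 1 higher (median -0.52). Among the lower genes was Il6, at 66.1 against 199 CPM (-1.59). Chemokines had 5 of 14 lower and 0 higher (median -0.51), including Ccl2 at 90.8 against 205 CPM (-1.17). Complement had 3 of 11 lower and 0 higher, among them C3, with 0 UMIs against 925. Fibrillar collagens had 1 of 14 lower and basement membrane genes 1 of 12, with 0 higher in both, and Col4a1 was level at 2163 against 2002 CPM (0.11, -0.07 to 0.29). Growth factor receptors had 0 of 21 at least 2-fold apart in either direction. Proteoglycans had 5 of 20 lower and 0 higher, and matrix proteases 5 of 14 lower, among them Adamts5 (215 against 561 CPM, -1.39), and 1 higher. Contractile genes had 3 of 8 lower and 0 higher (median -0.62), WNT genes 2 of 8 lower and 0 higher, and interferon response genes 2 of 14 lower and 0 higher. Some lists did not lean lower. TNF superfamily genes had 2 of 11 higher and 1 lower (median 0.42). Preadipocyte genes had 2 of 18 higher and 3 lower, and their sum was higher in the progressed cells (log2 ratio 0.59, 0.52 to 0.66). Class I antigen presentation genes had 0 of 8 at least 2-fold apart, and their sum was higher (0.36, 0.19 to 0.52). Differences between lists were not tested. Saa3 had 0 UMIs in the progressed cells and was at 170 CPM in the untreated ones.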

How the data were processed

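Cells of 3 tumors were profiled on the 10x Chromium 3′ v2 platform, 1 library each. The authors aligned reads to GRCm38 with GSNAP, counted uniquely mapped sense exonic reads as UMIs, dropped cells under 300 UMIs and clustered with Seurat 2.2.0, per the methods and the submitters' processing notes. The deposited counts are whole UMIs per Entrez gene and cell, and the deposited table of cluster names (other, no numeric unit) was used as it stands. Of 36530 features, 31051 matched a RefSeq symbol (3.74% of UMIs did not). UMI sums exceeded the deposited per-cell totals by 5.02%, for a reason not given in the sources used here, while the numbers of genes detected agreed for all 12670 cells. Cell names are running numbers, so barcodes shared by libraries could not be counted, and no doublet caller was run.

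UMIs were summed per tumor and cluster and scaled to CPM. Levels have exact Poisson intervals, shares exact binomial (Clopper-Pearson) intervals and log2 ratios exact conditional binomial intervals, all at 95%. Bounds for genes without a UMI assumed 3 UMIs in the whole group. Called genes had at least 20 UMIs in both groups together and a ratio of at least 2-fold. Cells were thinned to 2000 UMIs with a fixed seed. No test was run, because each group was 1 tumor and the clusters were made from these genes. The scripts were tested on simulated data. Alternatives covered scaling (edgeR TMM and RLE), the UMI minimum, thinning, mean per-cell CPM, left-out cells, duplicate features and equal weight per cluster.

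The members, markers and gene lists were chosen with earlier results of these data known. Named genes were the 6 markers, the 20 highest and 10 lowest of the untreated contrast with at least 50 CPM and 50 UMIs in the higher group, the 10 highest and 10 lowest between tumors with at least 100 CPM and 20 UMIs in the higher group, the 10 most variable genes, and from each of 36 lists the members at least 2-fold apart or with the most UMIs. Ribosomal, mitochondrial, hemoglobin and sex-linked marker genes were not named. Other genes named for context (such as Ccl19, Pparg, Gpihbp1 and Icam1) were chosen after their values were seen. Sequence is from RefSeq, GRCm38.p6. The software was Python 3.11.15, numpy 2.4.6, scipy 1.17.1, pandas 2.3.3 and edgeR 4.0.16. Some items of the genotype and of the gene lists are not reported here.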

Additional observations from a re-analysis of the deposited data

How the results depend on the processing

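No paired analysis was possible because each group was 1 tumor and the results come from no test. The contrast of Stroma2 with other stroma over all genes was not run within the progressed tumor, where 26 cells were under the minimum of 50. Among the alternatives computed, no ratio of a named gene and no list median that was at least 2-fold apart changed sign. The other called genes were counted only and not followed gene by gene. Of the named genes' ratios, 254 stayed within their counting interval and 46 did not in the untreated contrast, and 236 and 8 between tumors. List medians moved by less than 0.2 on the log2 scale in 312 values and by more in 48, and between tumors in 289 and 64. In the untreated contrast, 1419 genes were 2-fold higher and 1793 lower with no UMI minimum, and 314 and 398 with at least 100 UMIs, where fewer genes were tested; under the other alternatives the counts were within 1.5 times the reported ones. Between progressed and untreated Stroma2 cells, 1762 genes were higher and 964 lower with no minimum, and 367 and 956 with at least 100 UMIs, so the balance of the reported counts turned the other way; with at least 500 UMIs, an alternative chosen after seeing the data, 27 were higher and 118 lower. Thinning gave 1172 higher and 517 lower, and mean per-cell CPM 1292 and 1521. Of all cells of the untreated tumor, Stroma2 held 27.9%, and with at least 2000 UMIs per cell the regressed tumor held 0% in Stroma2. Shares of Stroma2 cells with a UMI moved with depth: without thinning and at 1000 UMIs they were 52.7% and 24.6% for Vcam1, 25.5% and 6.09% for Aoc3, 89.7% and 61.5% for Gdf10, 23.5% and 8.03% for Tnfsf13b, 26.7% and 18.0% for Sele, and 89.8% and 60.6% for Lpl. Depth limits the progressed values most, since 26 cells held 121117 UMIs.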
